A study of Mus musculus with 9 samples.

Results

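The nuclear genes for the proteins of the mitochondrial ribosome were followed in sorted amygdala cells of mice with balancing, avoiding or approaching behaviour. The genes were taken by name: every listed gene with a mouse symbol that starts with Mrpl or Mrps, followed by a number, was included. The rule used no expression value. It found 66 of the 9872 genes in the table that compares avoiding with balancing mice and 73 of the 11820 genes in the table that compares approaching with balancing mice. In all, 77 genes were listed in at least 1 table and 62 in both, out of 78 protein-coding genes with such names in the annotation. Mrpl23 was listed in neither. Mrpl44, Mrps12, Mrps14 and Mrps24 appeared only in the first table, and Mrpl2, Mrpl9, Mrpl36, Mrpl38, Mrpl40, Mrpl53, Mrps2, Mrps7, Mrps11, Mrps23 and Mrps34 only in the second. None of the 5 annotated pseudogenes of these genes was listed. How reads shared with such copies were assigned was not tested.

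All 9 mice carried the transgene of the line B6.Cg-Tg(Thy1-YFP)HJrs/J, in which the Thy1 promoter drives yellow fluorescent protein in subsets of neurons, pyramidal cells of the amygdala among them. They were untreated and were sorted into phenotypes by their choices in a conflict task between a lit arm with palatable food and a dark arm with standard food: 3 balancing (BA), 3 avoiding (AV) and 3 approaching (AP) mice. Amygdala punches were taken 1 month later, YFP-positive cells were sorted, and 1 stranded library per mouse was made with a kit for very small inputs of RNA. Age is not given in the sources used here. AV replicate 2, an outlier by the authors' judgement, has no values here, so 2 AV mice (replicates 1 and 3) were set against 3 BA mice, and 3 AP mice against the same 3 BA mice.

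The mitochondrial ribosome translates the few messenger RNAs that mitochondrial DNA encodes, and all of its proteins are made in the cytosol from nuclear genes and imported. The large subunit, with proteins named Mrpl, forms the peptide bond and holds the exit tunnel, which opens at the inner membrane. The small subunit, with proteins named Mrps, binds the messenger RNA and reads its codons. Its products are core subunits of the respiratory chain, on which neurons depend for the energy of synaptic transmission. Many of the proteins have bacterial counterparts and others are particular to mitochondria. A few symbols mislead about position: Mrps18a and Mrps30 encode proteins of the large subunit, and the product of Mrps36 is now placed in the oxoglutarate dehydrogenase complex of the citric acid cycle.

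The deposited values are normalised signals, not read counts, and sum to between 3267967 and 3974274 per mouse in the AV vs BA table and to between 4589304 and 5072766 in the AP vs BA table. Whole-read steps in the latter put 3819964 to 6724526 reads on its listed genes in each mouse, which is not the sequencing depth. The AV vs BA table uses the same BA libraries, but the number of reads behind its values is unknown. The sorted cells are labelled pyramidal neurons, but few defining markers of excitatory neurons were listed. Markers of oligodendrocytes had higher sums than these in every library. Of 12 markers of excitatory neurons only Camk2a and Nrgn were listed in either table, and Slc17a7, Neurod6 and Rbfox3 were not. Genes were listed after a filter on low counts, so absence from a table is not a measured level. The sum of the 2 listed markers was 67.1 to 93.0 in BA and 1785 to 3096 in AV mice, and in the other comparison it was 79.7 to 119 in BA mice against 82.5, 955 and 1798 in AP mice 1 to 3. All 8 markers of oligodendrocytes were listed, with sums of 188650 to 233680 in BA and 53606 to 82507 in AV mice, and of 222740 to 284220 in BA and 225350 to 277610 in AP mice. The 7 listed astrocyte markers of 8 summed to 9919 to 15503 in BA and 31052 to 60236 in AV mice. Of 11 microglia markers 3 were listed in the AV vs BA table, with sums of 237 to 354 in BA and 722 to 939 in AV mice, and all 11 in the AP vs BA table, with sums of 1583 to 3202 in BA and 4333 to 7807 in AP mice. The cells are therefore called sorted cells here. Between AV and BA mice the sums of each of these cell types thus did not overlap. Between AP and BA mice only those of microglia were apart, and AP mice 2 and 3 lay above the BA range for excitatory neurons. The part of these differences in the results on the ribosomal genes was not tested. In bulk RNA fewer cells of a type and less RNA per cell cannot be told apart.

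In AV compared with BA mice, few mitochondrial ribosomal protein genes passed the test. Mrpl52 and Mrpl18 rose to 2.51-fold and 1.96-fold of the BA level and Mrps9 fell to 0.476-fold, and these were the only 3 of 66 genes called (4.55%), in limma fitted across all 9872 genes with the Benjamini-Hochberg threshold set at 0.05. By the same rule, 29.7% of all genes were called, 13.6% higher and 16.2% lower. The direction of the estimates leaned upward: 49 of the 66 genes had a higher and 17 a lower mean in AV mice, and the median log2 fold change, on the log2(value + 1) scale used throughout, was 0.29 against -0.026 over all genes.

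The promoters of the 3 called genes are printed here because they are the members that passed the test. Each window runs from 250 bases before to 50 bases after the transcription start that RefSeq annotates on GRCm38.p6, and capitals mark matches, on either strand, to the motif letters of NRF1, the ETS family, YY1 or NFY. The Mrpl52 window is chr14:54426659-54426958 on the plus strand, that of Mrpl18 chr17:12916042-12916341 on the minus strand and that of Mrps9 chr1:42850983-42851282 on the plus strand.
Mrpl52: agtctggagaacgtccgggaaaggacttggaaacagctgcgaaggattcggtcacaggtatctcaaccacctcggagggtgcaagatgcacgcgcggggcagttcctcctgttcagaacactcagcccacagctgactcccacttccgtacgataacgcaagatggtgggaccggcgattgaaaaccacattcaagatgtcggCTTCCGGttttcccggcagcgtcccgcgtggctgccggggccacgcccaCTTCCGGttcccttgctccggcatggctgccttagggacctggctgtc
Mrpl18: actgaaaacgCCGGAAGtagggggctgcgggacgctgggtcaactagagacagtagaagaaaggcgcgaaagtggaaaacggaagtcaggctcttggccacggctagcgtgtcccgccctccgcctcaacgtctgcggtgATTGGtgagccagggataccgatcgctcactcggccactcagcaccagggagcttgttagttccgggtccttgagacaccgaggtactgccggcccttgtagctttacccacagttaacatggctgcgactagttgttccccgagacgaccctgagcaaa
Mrps9: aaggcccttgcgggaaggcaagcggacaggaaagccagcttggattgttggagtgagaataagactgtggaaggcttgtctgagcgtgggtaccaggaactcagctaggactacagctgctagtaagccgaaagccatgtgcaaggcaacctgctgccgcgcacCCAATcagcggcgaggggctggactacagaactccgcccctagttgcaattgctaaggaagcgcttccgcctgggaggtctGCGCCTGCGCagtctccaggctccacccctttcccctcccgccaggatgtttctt
The capitals in the Mrpl52 window are 2 ETS family matches, those of Mrpl18 an ETS family and an NFY match, and those of Mrps9 an NFY and an NRF1 match.

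RefSeq windows matched 68 of the 77 listed member genes, with 74 windows. The letters GCGCA, then any base, then GCGC, which NRF1, a regulator of nuclear genes for respiration, binds, were in 17.6% of the member windows and in 4.60% of all 32851 windows of this length. The ETS family core CCGGAAG was in 35.1% against 8.86%, and AAGATGGCG, the letters of YY1, in 10.8% against 1.40%. CCAAT, bound by NFY, was in 40.5% against 37.4%, the E-box CACGTG in 9.46% against 7.15%, and TATAAA, the TATA box, in 6.76% against 13.6%. Both strands were searched for each motif, and the motifs were counted separately. The member windows were also richer in G and C, with a median of 58.5% against 52.7%. The 32851 windows include those of genes that were not listed here, so they are not a background of expressed genes. These shares describe sequence, and whether any of these factors bound was not measured.

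Mrpl52 (ENSMUSG00000010406.12, chr14:54426909-54429756 on GRCm38, plus strand) encodes a protein of the large subunit that bacterial ribosomes lack. Its normalised value was 24.9, 19.8 and 20.1 in BA mice 1 to 3 and 49.5 and 62.2 in AV mice 1 and 3. Both AV mice lay above every BA mouse. The means were 21.6 ± 2.83 (SD, n = 3) and 55.9 ± 8.93 (SD, n = 2), with a log2 fold change of 1.33 ± 0.24 (SE, limma adjusted p = 0.00821). This call held with each of the 5 mice left out in turn.

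Mrpl18 (ENSMUSG00000057388.9, chr17:12911349-12916345, minus strand) encodes the counterpart of a bacterial protein of the central protuberance, a landmark of the large subunit. BA mice had 51.2, 55.5 and 69.1 and AV mice 112 and 118. The AV values lay close together, well above the BA range. The log2 fold change was 0.97 ± 0.23 (SE, limma adjusted p = 0.0219), and the adjusted p was 0.0757 without BA mouse 1 and 0.0804 without BA mouse 2. Mrpl18 shares 141 exon bases with Tcp1, a cytosolic chaperonin gene on the opposite strand that was not called (log2 fold change 0.40, limma adjusted p = 0.212).

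Mrps9 (ENSMUSG00000060679.14, chr1:42851233-42905683, plus strand) encodes a conserved protein of the small-subunit head. Its value was 150, 119 and 169 in BA mice and 65.1 and 71.3 in AV mice, with no overlap. The log2 fold change was -1.07 ± 0.24 (SE, limma adjusted p = 0.0183), the lowest of all 66 genes. Without BA mouse 1 the adjusted p was 0.0659, and without BA mouse 3 it was 0.0630.

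**Figure D1:**
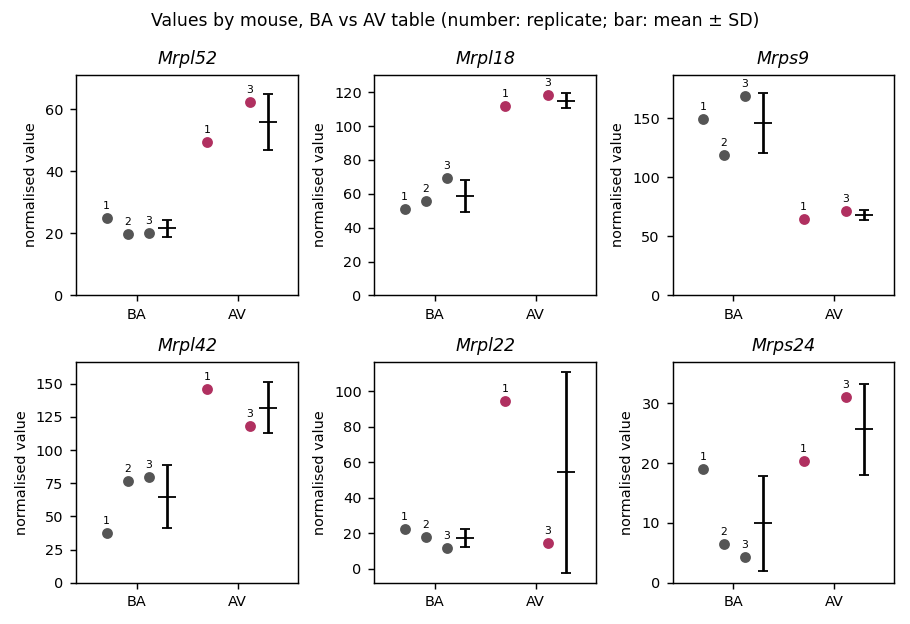
Normalised values by mouse for 6 genes of the AV vs BA table, on linear axes, with BA mice in grey and AV mice in red, replicate numbers above the points and the mean ± SD beside them. Mrpl52 and Mrpl18 lie higher and Mrps9 lower in both AV mice, whereas the AV mean of Mrpl22 rests on AV mouse 1 at 94.3 against 14.2 in AV mouse 3, so that its SD bar reaches below 0.

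The genes with large estimates that were not called, chosen for naming after their values were seen, show where the spread between mice lay. Mrps24, a small-subunit gene, had the highest log2 fold change of all members, 1.50 ± 0.55 (SE, limma adjusted p = 0.0821). Its BA values were 19.0, 6.49 and 4.25 and its AV values 20.3 and 31.0, so BA mouse 1 lay next to AV mouse 1. These are low values, since 3 reads corresponded to between 4.12 and 5.68 in the other table, and Mrps24 shares 226 exon bases with Urgcp on the same strand.

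Mrpl22, which lines the exit tunnel, had 22.2, 17.6 and 11.7 in BA mice and 94.3 and 14.2 in AV mice. A single library set its log2 fold change of 1.11 ± 0.72 (SE, limma adjusted p = 0.278), which was -0.21 without AV mouse 1. For Mrpl42, a large-subunit gene, BA mice had 37.4, 77.1 and 79.8 and AV mice 146 and 118. Both AV mice were above all BA mice, of which mouse 1 stood lowest, and the log2 fold change of 1.09 ± 0.37 (SE) had a limma adjusted p of 0.0656.

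Mrps33, the small-subunit gene closest to the threshold, had 99.0, 86.7 and 99.8 in BA and 138 and 184 in AV mice (log2 fold change 0.74, limma adjusted p = 0.0535). Mrpl57 had 14.0, 25.4 and 30.9 against 43.1 and 47.5, with a log2 fold change of 0.99 (limma adjusted p = 0.0719). On the low side, Mrpl24 had 134, 148 and 115 in BA and 90.0 and 78.2 in AV mice (log2 fold change -0.64, limma adjusted p = 0.0735). Mrpl45, whose protein anchors the large subunit at the inner membrane, was at 66.2, 58.1 and 47.3 against 19.3 and 45.5, and Mrpl58, a peptidyl-tRNA hydrolase built into the large subunit, at 44.2, 30.2 and 39.2 against 14.2 and 29.2. In both, AV mouse 3 lay just under the lowest BA mouse and AV mouse 1 far below it, and neither passed the test (log2 fold change -0.91 and -0.84, limma adjusted p = 0.112 and 0.108).

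Counted over all 66 genes, 12 had a higher and 4 a lower value at an unadjusted limma p under 0.05, that is 24.2%, where 43.2% of all genes did (20.2% higher and 23.0% lower). In 22 genes both AV mice lay above all BA mice and in 6 below, together 42.4% of the members against 58.9% of all genes (27.7% above and 31.3% below). By direction, the share of members above was 33.3%, over that of all genes, and the share below was 9.09%, under it. The estimates of the members were also smaller: the median size of the log2 fold change was 0.42 against 0.57, and 5 members (7.58%) exceeded a log2 change of 1 in either direction, against 27.5% of all genes. Their standard errors were slightly larger, with a median of 0.30 against 0.27. The 95% confidence interval lay inside a log2 change of ±1 for 24 members (36.4%) and 31.2% of all genes. For the other members the interval reached past a 2-fold change.

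**Figure D2:**
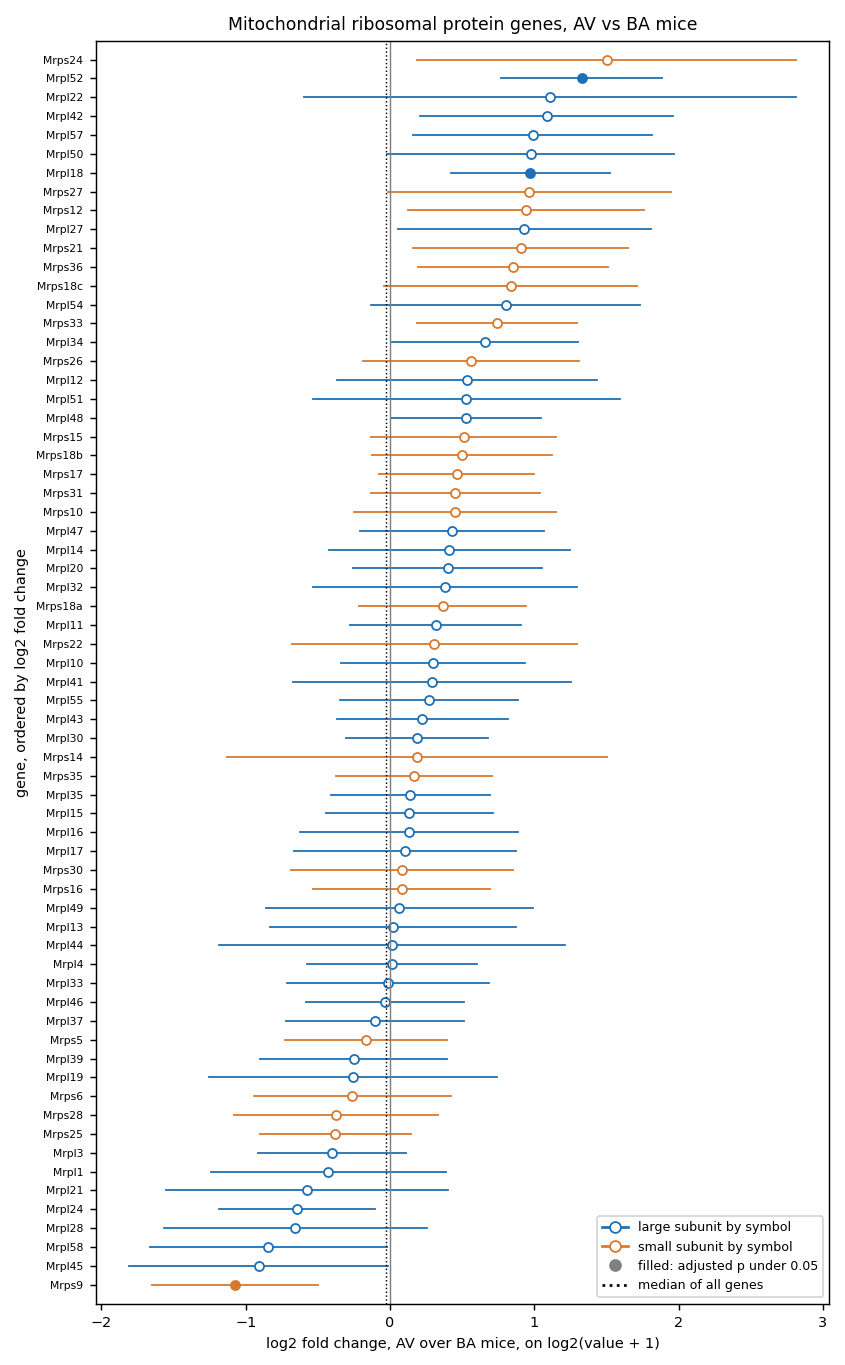
Log2 fold change of AV over BA mice for each of the 66 genes, in order of size, with bars for the 95% confidence interval, blue for symbols of the large and orange for those of the small subunit. Filled points mark the 3 called genes, and the 49 points right of 0 outnumber the 17 left of it, while the dotted median of all genes stands at -0.026.

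The summed value of the 66 genes was 4170, 3866 and 4022 in BA mice and 4857 and 4503 in AV mice, so both AV mice were above the BA range. As a share of all listed signal this was 0.0973% to 0.111% in BA mice and 0.131% to 0.149% in AV mice. The AV mice differed in extent. The median log2 difference of the members from the BA mean was 0.42 in AV mouse 1 and 0.16 in AV mouse 3, against -0.034 to 0.060 in the BA mice. In fits with an AV mouse left out, the lone AV mouse was assumed to vary like the BA mice. Counts of called members in those fits rest on this assumption and are not read as results.

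Set against the large subunit, the small subunit had the higher median. Of the 42 genes with large-subunit symbols 30 were higher and 2 were called, with a median log2 fold change of 0.21. Of the 24 with small-subunit symbols 19 were higher and 1 was called, in the lower direction, with a median of 0.45. The shares called were 4.76% and 4.17%, against 29.7% of all genes. The difference in medians, large minus small, was -0.24 by symbol and -0.25 by place in the ribosome. Within each mouse, the same difference of medians from the BA mean was 0.14, 0.093 and -0.16 in BA mice and -0.30 in each AV mouse. The AV values lay below all BA values, but the BA mice themselves spanned 0.30, and with 2 against 3 mice no test over mice was made.

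Mrps18a, in the large subunit despite its symbol, had 51.0, 71.4 and 52.0 in BA and 76.2 and 72.4 in AV mice (log2 fold change 0.37, limma adjusted p = 0.291). Mrps30, also in the large subunit, had 45.4, 83.3 and 70.5 against 57.1 and 81.5 and overlapped throughout (0.083, limma adjusted p = 0.866). Mrps36, which is not a ribosomal gene by present placement, had 21.1, 32.8 and 25.2 against 55.7 and 40.6 (0.85, limma adjusted p = 0.0581). The median was 0.19 over the 39 genes with a bacterial counterpart and 0.34 over the 26 without one. Of these 2 and 1 were called (5.13% and 3.85%, against 29.7% of all genes). Conserved and mitochondria-specific genes were thus both spread around small positive medians.

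The BA levels of the members spanned about an order of magnitude per length. In the AV vs BA table the normalised value per kilobase of merged exons was highest for Mrpl24, at 58.7 ± 7.47 (SD, n = 3), Mrps21, at 57.3 ± 17.2, and Mrps33, at 57.1 ± 4.41, and these 3 did not differ beyond their spread. It was lowest for Mrpl47, at 7.77 ± 1.46, Mrps24, at 6.76 ± 5.41, and Mrps16, at 5.83 ± 1.13. The median over the 66 genes was 19.1. In the AP vs BA table the same BA mice gave 71.0 for Mrpl24, 66.2 for Mrps33 and 65.6 for Mrps21 at the top, 8.94 for Mrpl57, 8.88 for Mrps11 and 7.12 for Mrps16 at the bottom, and a median of 24.0. The tables were normalised separately, so a level in one is not on the scale of the other. Per-length values rest on the merged exons of the annotation, and transcripts used in these cells may be shorter.

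In AP compared with BA mice, no mitochondrial ribosomal protein gene was called. The count was 0 of 73 in limma fitted across 11820 genes, of which 0.00846%, a single gene, was called, and it was also 0 under each alternative tried. The estimates went both ways, with 39 genes higher and 34 lower and a median log2 fold change of 0.061 against -0.032 over all genes. The sign of this median turned without AP mouse 2 (-0.078), AP mouse 3 (-0.023) or BA mouse 3 (-0.050). At an unadjusted limma p under 0.05 there were 3 members (4.11%), 1 higher and 2 lower, against 7.77% of all genes (4.99% higher and 2.77% lower). The groups did not overlap for 5 members (6.85%), 3 above and 2 below, against 12.1% of all genes (5.64% above and 6.45% below). Changes ranged from -0.82 to 0.79. The 95% confidence interval lay inside a log2 change of ±1 for 47 of the 73 genes (64.4%, against 63.3% of all genes). For the other members it reached past a 2-fold change, so such changes were not resolved there.

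The 6 members with the smallest p are given with their values. Mrpl12, whose protein forms the stalk that recruits translation factors, had 30.8, 49.1 and 26.5 in BA mice and 57.7, 64.3 and 58.2 in AP mice. All AP mice were above all BA mice, with a log2 fold change of 0.79 ± 0.27 (SE, limma adjusted p = 0.516). Mrpl16, a conserved large-subunit gene, had 69.1, 33.8 and 52.3 against 28.2, 35.3 and 21.5. AP mouse 2 lay inside the BA range, and the log2 fold change was -0.82 ± 0.31 (SE, limma adjusted p = 0.588).

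Mrps10, a small-subunit head protein gene, had 117, 93.3 and 95.0 in BA and 81.0, 73.5 and 49.6 in AP mice, with a log2 fold change of -0.60 (limma adjusted p = 0.639). Mrpl35, a large-subunit gene, had 154, 134 and 124 against 94.3, 115 and 75.6 (-0.54, limma adjusted p = 0.653). For both, the AP mice lay below the BA mice with AP mouse 3 lowest. Mrps27, a small-subunit gene for an RNA-binding repeat protein, had 52.1, 37.9 and 20.4 against 38.4, 73.5 and 76.6 (0.79, limma adjusted p = 0.685), and Mrpl18 had 65.9, 66.6 and 79.2 against 72.5, 105 and 131 (0.50, limma adjusted p = 0.696). In these last genes AP mouse 1 fell within the BA range and the other AP mice above it.

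The remaining genes called in AV mice had no separation in AP mice. Mrpl52 had 29.7, 23.5 and 24.1 in BA mice and 15.6, 28.2 and 51.7 in AP mice (0.15, limma adjusted p = 0.923), so that the AP mice lay on both sides of the BA range. Mrps9 had 173, 140 and 199 against 168, 103 and 130 (-0.36, limma adjusted p = 0.738). Both comparisons use the same BA mice, and the difference between AV and AP mice was not tested, since they stand in separate tables. Mrps18a, Mrps30 and Mrps36 had log2 fold changes of -0.10, 0.38 and 0.23 in AP mice, with limma adjusted p values of 0.919, 0.731 and 0.854.

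**Figure D3:**
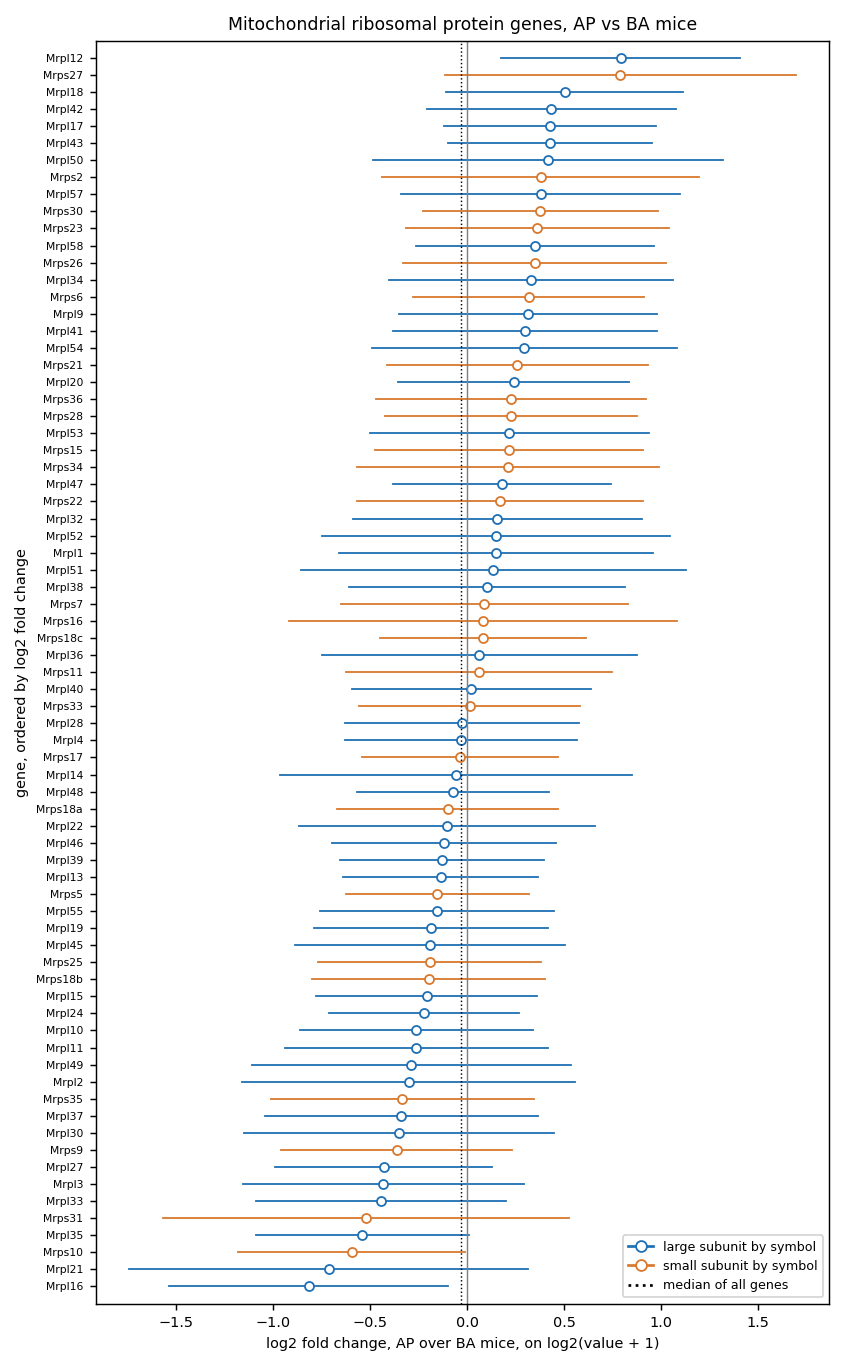
Log2 fold change of AP over BA mice for each of the 73 genes, in order of size, with bars for the 95% confidence interval, blue for symbols of the large and orange for those of the small subunit. No point is filled because none was called, and the points run from -0.82 for Mrpl16 to 0.79 for Mrpl12.

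Summed over the 73 genes, the value was 5371, 5148 and 4953 in BA mice and 4815, 5449 and 5124 in AP mice, or 0.101% to 0.117% and 0.101% to 0.114% of the listed signal. The groups overlapped. The 47 large-subunit symbols had a median log2 fold change of -0.032, with 22 higher, and the 26 small-subunit symbols one of 0.085, with 17 higher, a difference of -0.12. Per mouse the large-minus-small difference was 0.12, 0.0042 and -0.053 in BA mice and -0.019, 0.024 and -0.27 in AP mice, so only AP mouse 3 lay outside the BA range.

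The cytosolic ribosome was set as a comparison in the same AV mice. Of 65 listed cytosolic ribosomal protein genes 61 (93.8%) were called, all higher, with a median log2 fold change of 1.54. Of 32 nuclear genes for subunits of respiratory complex I, which contains proteins made on the mitochondrial ribosome, 13 (40.6%) were called, all higher, with a median of 0.71. Over all genes 29.7% were called, 13.6% higher. The mitochondrial ribosomal genes, with 4.55% called and a median of 0.29, were lower on both counts than either list. In AP mice the medians were 0.60 over 79 cytosolic ribosomal genes, 76 of them higher, 0.23 over 36 complex I genes and 0.061 over the mitochondrial ribosomal genes, with 0 called in each. These lists differ in level and exon length, and no test between lists was made.

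Mouse by mouse, the median difference of the cytosolic genes from the BA mean was 1.39 and 1.62 in AV mice 1 and 3, where the mitochondrial ribosomal genes had 0.42 and 0.16. In AP mice 1 to 3 it was 0.076, 0.75 and 0.95, where the mitochondrial ribosomal genes had -0.094, 0.14 and 0.062. AP mouse 1 lay inside or near the BA range on each of these lists, whereas AP mice 2 and 3 lay above it on the cytosolic list. The summed markers of excitatory neurons were also lowest in AP mouse 1, with 82.5, 955 and 1798 in AP mice 1 to 3. So were those of all 8 astrocyte markers, with 9952, 53054 and 30060 against 12533 to 17502 in BA mice. The part of these cell types in the values was not tested.

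**Figure D4:**
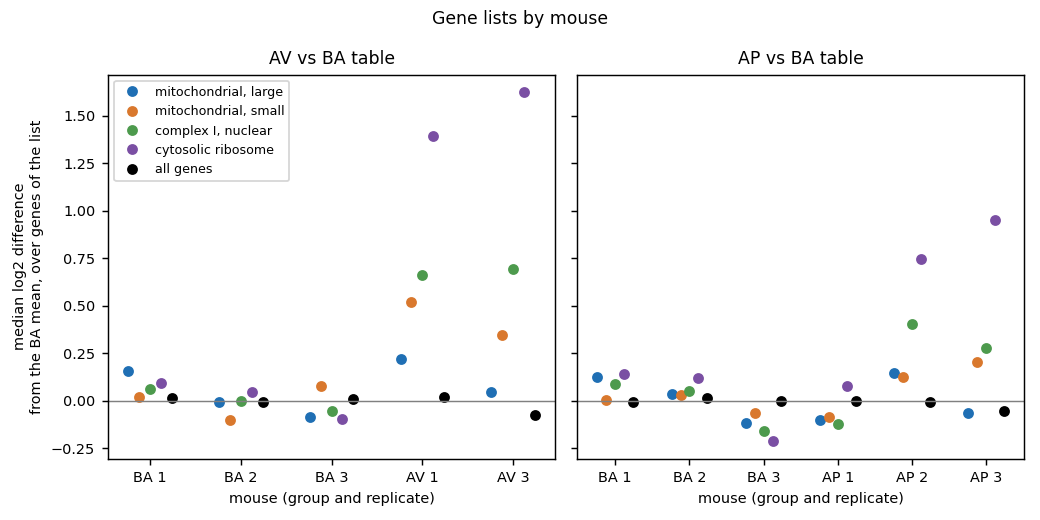
Median log2 difference from the BA mean over the genes of each list, 1 point per list and mouse, with the AV vs BA table on the left and the AP vs BA table on the right. The large (blue) and small (orange) mitochondrial subunits stay at or below 0.52 in every mouse, whereas the cytosolic ribosome (purple) reaches 1.39 and 1.62 in the AV mice.

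Other genes of mitochondrial translation were taken as lists from textbook function. The list for ribosomal subunits under other names held 8 symbols. It includes Oxa1l, which encodes an insertase of the inner membrane and not a ribosomal subunit, so 8 is not a count of subunits. Dap3, Ptcd3, Chchd1, Aurkaip1 and Oxa1l were listed for AV vs BA mice, and 0 were called. Among them Aurkaip1, a small-subunit gene, had 60.1, 53.5 and 38.6 in BA and 71.9 and 102 in AV mice (log2 fold change 0.77, limma adjusted p = 0.0852). In AP mice Ptcd3, also in the small subunit, was at 340, 289 and 290 against 240, 193 and 170 (-0.62, limma adjusted p = 0.565), below all BA mice but not called.

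Of 17 mitochondrial translation factors 13 were listed in AV mice, and 1 rose and 1 fell (15.4%, against 29.7% of all genes called). Tufm, the elongation factor that brings transfer RNA to the ribosome, had 51.2, 55.4 and 59.4 in BA and 144 and 104 in AV mice and rose (1.14, limma adjusted p = 0.0145), with an adjusted p of 0.0581 without BA mouse 1 and 0.0582 without BA mouse 2. Mtfmt, the enzyme that formylates the initiator transfer RNA, had 110, 83.0 and 109 against 4.86 and 19.4 and fell (-3.20, limma adjusted p = 0.00591). Tsfm, the exchange factor of Tufm, was at 6.02, 7.45 and 8.59 against 17.2 and 11.2 (0.84, limma adjusted p = 0.0571). In AP mice 14 factors were listed and 0 called, with Slirp, which stabilises mitochondrial messenger RNAs, at -0.85 (limma adjusted p = 0.428) and Mtrf1, a release factor, at 0.70 (limma adjusted p = 0.643).

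Of 32 assembly factors of the mitochondrial ribosome 18 were listed in the AV vs BA table, 13 with a lower and 5 with a higher mean, and 3 (16.7%) were called, all lower. This share is close to the 16.2% of all genes called lower. Mterf3, which acts in large-subunit assembly, had 345, 292 and 395 in BA and 126 and 126 in AV mice (-1.43, limma adjusted p = 0.00634). Eral1, a chaperone of the small-subunit RNA, had 69.5, 64.9 and 53.3 against 22.3 and 26.5 (-1.32, limma adjusted p = 0.00821), and Fastkd2, named after its value was seen and needed for the large-subunit RNA, 171, 99.8 and 150 against 74.4 and 68.6 (-0.93, limma adjusted p = 0.0494). The call of Fastkd2 was lost when BA mouse 1, BA mouse 3 or either AV mouse was left out, with limma adjusted p values of 0.0545 to 0.139, whereas those of Mterf3 and Eral1 held with each mouse left out. Rpusd3, a pseudouridine synthase, was at 0.79 (limma adjusted p = 0.0944). The median of this list was -0.14, where that of the ribosomal proteins was 0.29. In AP mice 26 were listed and 0 called, among them Mtg1, a GTPase, at -0.98 (limma adjusted p = 0.582), and Rcc1l, at -0.84 (limma adjusted p = 0.528).

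Of 11 genes that transcribe or copy mitochondrial DNA 5 were listed in the AV vs BA table and 3 (60.0%) were called, all lower, where 16.2% of all genes were. Twnk, the replicative helicase, had 58.5, 60.6 and 70.3 in BA and 20.3 and 23.0 in AV mice (-1.50, limma adjusted p = 0.00504), Tfb2m, a transcription factor, -1.26 (limma adjusted p = 0.0353), and Ssbp1, a single-strand binding protein named after its value was seen, -0.82 (limma adjusted p = 0.0473). The call of Twnk held with each mouse left out. That of Tfb2m was lost without AV mouse 1, where its log2 fold change was -0.74, and without each BA mouse in turn, with limma adjusted p values of 0.0819 to 0.114. That of Ssbp1 was lost without AV mouse 3 or each BA mouse in turn, with limma adjusted p values of 0.0762 to 0.134. Tfam and Polrmt were not called. RNAs encoded by mitochondrial DNA itself were mostly not listed: only mt-Co3 and mt-Nd6 of 15 were in that table, and both rose in AV mice (2.49 and 2.12, limma adjusted p = 0.00460 and 0.00409). In AP mice 0 of the 9 listed genes of transcription and copying and 0 of the 4 listed mitochondrial RNAs were called, with median log2 fold changes of -0.38 and 1.26. mt-Co2 was at 1.31 (limma adjusted p = 0.442) and mt-Nd3 at 1.40 (limma adjusted p = 0.637).

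Many mitochondrial ribosomal protein genes start next to another gene. For 33 of the 77 listed genes (42.9%) a protein-coding gene on the opposite strand started within 1000 bases, against 1884 of 11860 (15.9%) over the protein-coding genes of both tables. Counted from the member's side, both partners were listed for 19 in the AV vs BA table, and 8 of them had estimates of the same sign. Of these partners 5 (26.3%) were called, close to the 29.7% of all genes, and of these members 1, Mrpl18. The called partners, named after their values were seen, were Mtbp, Twnk, Sars2, Helq and Fau.

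The start of Twnk lies 779 bases from that of Mrpl43, and the genes overlap on opposite strands. They share 507 exon bases, 33.4% of the exons of Mrpl43. Twnk fell by 1.50 on the log2 scale, and Mrpl43 had 58.2, 51.8 and 45.1 in BA and 70.9 and 51.2 in AV mice and was not called (0.23, limma adjusted p = 0.522). Helq, a DNA helicase gene whose start lies 29 bases from that of Mrps18c, fell (-0.91, limma adjusted p = 0.0228), with Mrps18c at 0.84 (limma adjusted p = 0.130). Sars2, the mitochondrial seryl-tRNA synthetase, whose start lies 172 bases from that of Mrps12, also fell (-0.80, limma adjusted p = 0.0448). Mrps12 had 9.00, 11.0 and 18.7 against 29.5 and 20.5 (0.94, limma adjusted p = 0.0809). Mtbp fell (-1.40, limma adjusted p = 0.0147) beside Mrpl13 at 0.019, and Fau, which encodes a cytosolic ribosomal protein, rose (1.29, limma adjusted p = 0.0183) beside Mrpl49 at 0.065. Of these calls, that of Twnk held with each mouse left out, and those of the other partners were each lost without 1 mouse or another: Mtbp and Fau without BA mouse 2 or 3, and Helq and Sars2 without AV mouse 3 or each BA mouse in turn. In AP mice 24 had both partners listed, 11 with the same sign, and 0 members and 0 partners were called. In all, 33 members share exon bases with another gene, 8 of them on the same strand. The kit marks the strand, but whether the counting used it is not given in the sources used here, so reads of such partners may not be fully separate.

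Estimates were lower for members with longer exons. Across the 66 genes of the AV vs BA table, Spearman's rho between the log2 fold change and the merged exon length was -0.36, and over all genes it was -0.12. Over the 33 members with shorter exons the median was 0.50, and over the 33 with longer exons 0.14, where all genes below and above the same length had medians of 0.23 and -0.072. In the AP vs BA table rho was -0.29 over 73 members and -0.13 over all genes, with medians of 0.088 and -0.088. These are correlations across genes, which share libraries and are not independent replicates, and are given as a description. The part of RNA length or quality in the upward lean of the members was not tested.

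**Figure D5:**
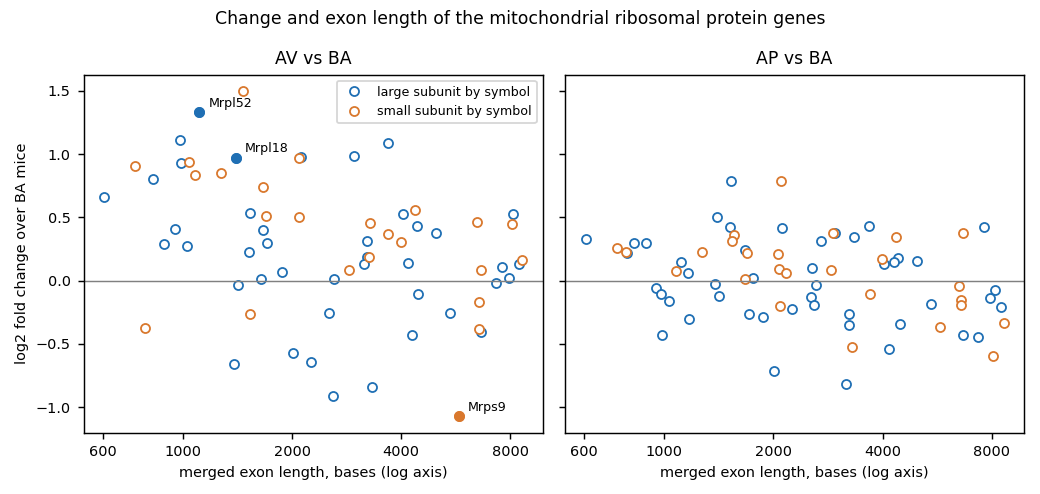
Log2 fold change over BA mice against merged exon length in bases, on a log axis, 1 point per gene, for AV mice on the left and AP mice on the right, blue for large-subunit and orange for small-subunit symbols. Filled and named points are the 3 called genes, and the points slope downward with length, with rho of -0.36 on the left and -0.29 on the right.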

How the data were processed

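Each library came from the YFP-positive amygdala cells of 1 mouse. Per the labels, the submitters' processing notes name bcl2fastq 2.20, Salmon 1.2 and GRCm38.p6. The paper's methods name a filter on low counts, TMM normalization and ARSyN batch correction, without saying for which table. The authors deposited a normalised signal per gene and mouse in a table for each comparison. The lowest value of every mouse in the AP vs BA table is 2, and 77.8% to 89.2% of its low values lie on steps of 1 read. AV replicate 2 was not used.

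Symbols and exons came from GENCODE M21 on GRCm38, matched by Ensembl identifier, and promoters from RefSeq (GRCm38.p6). No symbol was found for 1 gene of the AV vs BA table and 42 of the other. Each table was fitted alone with limma 3.58.1 (R 4.3.3) on log2(value + 1), with no covariates, all listed genes and the Benjamini-Hochberg adjustment at 0.05. A positive log2 fold change means higher in AV or AP mice. Changes of low genes are understated on this scale. Each replicate was a separate mouse, and members of a group were never siblings. Replicate numbers were not taken as pairs, since no label ties them. Same-numbered BA and AP mice deviated with correlations of 0.02, 0.121 and 0.081, above the -0.117 to 0.014 of differently numbered ones. Same-numbered BA and AV mice had -0.06 and -0.039, below the -0.024 to 0.06 of differently numbered ones. Whether the numbers mark pairs is not settled by these values. Members and lists were chosen with earlier results of these data known.

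The rule named called genes, in AP vs BA the 6 smallest p values, the 3 highest and 3 lowest levels per kilobase, members listed in 1 table, calls that end without 1 mouse, Mrps18a, Mrps30 and Mrps36, and from each list the 2 largest changes in each direction among unadjusted p values under 0.05. Alternatives were filters on the mean (10 and 50), pseudocounts of 0.5 and 5, median centring, quantile normalization, a variance prior with a trend, an adjusted p under 0.01, the replicate number as a block, subunits by place, leaving out Mrps36, the offset of 2 subtracted and each mouse left out. The scripts were tested on simulated data. Python 3.11.15, numpy 2.4.6, pandas 2.3.3, scipy 1.17.1 and matplotlib 3.10.9 were used.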

Additional observations from a re-analysis of the deposited data

How the results depend on the processing

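In AV vs BA mice the count of 3 called genes became 5 of 38 with a mean of at least 50, 5 with a pseudocount of 5 and 1 (Mrpl52) at an adjusted p under 0.01. It ranged from 2 to 15 with each mouse left out. This range includes the fits with a lone AV mouse, which was assumed to vary like the BA mice. The range of counts is therefore not read as a result. The median log2 fold change of 0.29 was 0.18 with a mean of at least 50. With each mouse left out, this median ranged from 0.16 to 0.42. In AP vs BA mice the count was 0 under every alternative run, and the median ranged from -0.078 to 0.17 with each mouse left out, below 0 without AP mouse 2, AP mouse 3 or BA mouse 3, and was -0.028 with a mean of at least 50. The large-minus-small difference was negative under each alternative run, from -0.30 to -0.12 in AV and from -0.17 to -0.037 in AP mice with each mouse left out.

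With the replicate number as a block, 0 members and 9.83% of all genes were called in AV mice. No label pairs the mice by number, and this fit keeps fewer degrees of freedom, so the lost calls alone do not show a weaker effect. Among the other named genes, it also ended the calls of Tufm, Eral1, Fastkd2, Tfb2m, Ssbp1, Mtbp, Sars2, Helq and Fau.

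With each mouse left out, signs turned in AV mice for Mrps30 (-0.17 to 0.34, below 0 without AV mouse 3 or BA mouse 1), Mrpl43 (-0.0056 without AV mouse 1 to 0.46) and Mrpl22 (-0.21 without AV mouse 1 to 2.43 without AV mouse 3), and in AP mice for Mrps18a (-0.22 to 0.079, above 0 without BA mouse 2), Mrpl48 (-0.14 to 0.053), Mrpl52 (-0.27 to 0.56) and Mrps31 (-0.94 to 0.042), the last 3 without AP mouse 3. None of these was called with all mice, and the cause was not tested. Subtracting the offset of 2 was run for the AP vs BA table only, since the lowest values of the other differ between mice. With 2 AV mice, and an unknown number of reads behind the values of that table, changes of 2-fold or less were often not resolved.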
